A study of Mus musculus with 2 samples.

Results

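The Hox genes encode homeodomain transcription factors that mark position along the body axis. They lie in 4 clusters, Hoxa to Hoxd, and genes in the same place in different clusters are paralogues that carry the same number, from 1 to 13. Low numbers are known for anterior and high numbers for posterior expression in the embryo, and cells in culture often keep the Hox pattern of the tissue they came from. The genes were taken by name from the deposited gene table, as every row named Hox followed by a cluster letter and a number. This gave 40 rows of 54532, which carry 39 symbols because Hoxd4 is listed under 2 identifiers.

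Transcripts were measured by RNA sequencing in CT26, a line of mouse colon carcinoma used widely in syngeneic tumour studies. One culture carried lentiviral mouse Oct4 together with human SOX2 (here Oct4/SOX2 cells), and the control culture carried the empty lentiviral vector. Both were grown in RPMI medium with fetal bovine serum for 4 days. The labels call the Oct4/SOX2 cells dedifferentiated. Oct4 (the product of Pou5f1) and SOX2 are transcription factors of the pluripotent state. The sources used here do not name the promoter that drives the introduced genes, nor say whether the cells are a clone or a pool. There was 1 library per group, so every difference below is between these libraries and has no replicate check.

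Reads assigned to genes numbered 32262408 for control cells and 31521115 for Oct4/SOX2 cells. Values are FPKM, which are per length of gene and can be set beside each other between genes. Pou5f1 had 0 reads in the control and stood at 173 FPKM in Oct4/SOX2 cells. Mouse Sox2 was at 14.1 and 23.3 FPKM. The introduced SOX2 is human, and whether reads from it were counted to the mouse gene cannot be told from these values. Of 15 colon epithelium markers, 3 reached 1 FPKM in a library. Among them Krt18 was at 15.2 and 11.3 FPKM and Krt20 at 14.9 and 28.3 FPKM, while Epcam had 1 and 2 reads, Vil1 had 2 and 1 reads, and Cdh1 and Cdx1 had 0. Of 12 mesenchymal markers 10 reached 1 FPKM, led by Vim at 599 and 966 FPKM. They did not move one way: 6 were higher in Oct4/SOX2 cells and 4 lower. Twist1 (40.1 and 97.6 FPKM) was 2-fold higher and Pdgfrb (14.1 and 4.93 FPKM) 2-fold lower by the rule used below. Col1a1 was at 62.1 and 40.0 FPKM and Col1a2 at 185 and 306 FPKM. The summed level was 37.5 and 48.0 FPKM for the epithelial list and 1274 and 1854 FPKM for the mesenchymal list, and the part of either in the Hox values was not tested. None of 12 markers of blood, endothelial, glial, muscle, liver or neuronal cells reached 1 FPKM, and 8 of them had 0 reads in both libraries. In bulk RNA, fewer cells expressing a gene and less RNA per cell cannot be told apart.

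Hox proteins of the same number are close relatives, and their transcripts are most alike in the homeobox, the stretch that encodes the DNA-binding homeodomain. The following sequences are shown because reads from such a stretch could match more than 1 member. Each is 36 bases of coding sequence from the GENCODE M21 transcript, 5′ to 3′, from the codons of the recognition helix, the part of the homeodomain that lies in the major groove of DNA. Capitals mark the positions that differ among the members of the same number that reached 1 FPKM.
Hoxa5: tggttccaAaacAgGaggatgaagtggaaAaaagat
Hoxc5: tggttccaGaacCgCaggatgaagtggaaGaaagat
Hoxa6: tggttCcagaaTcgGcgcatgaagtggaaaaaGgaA
Hoxb6: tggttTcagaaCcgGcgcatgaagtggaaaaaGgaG
Hoxc6: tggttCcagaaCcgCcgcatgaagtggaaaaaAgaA
Hoxa9: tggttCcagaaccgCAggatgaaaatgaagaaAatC
Hoxb9: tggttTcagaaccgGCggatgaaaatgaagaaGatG

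The paralogues of number 5 differed at 4 of these positions, and those of numbers 6 and 9 at 5. Across whole transcripts, the longest identical run between any 2 of the 11 members that reached 1 FPKM was 47 bases, between Hoxa6 and Hoxa7. The median over the 55 pairs was 17 bases. Only 2 pairs shared 30 or more, Hoxa6 with Hoxa7 and Hoxa9 with Hoxc5 (31 bases), and both join different numbers. The sources used here do not say how reads with several matches were counted, so members with such runs may share a few reads.

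Hox expression was low and uneven in both libraries. The 40 rows together held 0.0127% of the reads of the control library and 0.0133% of those in Oct4/SOX2 cells. For 15 symbols no read was counted in either library, another 3 had 1 to 9 reads over both, and 21 had at least 10. Of these 21, 11 reached 1 FPKM in a library: Hoxa5, Hoxa6, Hoxa7, Hoxa9, Hoxa10, Hoxb6, Hoxb9, Hoxc4, Hoxc5, Hoxc6 and Hoxd8. All except Hoxc5 did so in both libraries. Hoxc5 passed in the Oct4/SOX2 library alone, at 0.913 FPKM in control cells and 1.07 FPKM in Oct4/SOX2 cells. The 11 genes made up 93.6% and 94.0% of all Hox FPKM. Of them, 8 share no exon base with another gene in GENCODE M21, and the exceptions are Hoxa7, Hoxa9 and Hoxc5.

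The genes with no reads were Hoxa11 in the Hoxa cluster, Hoxb1, Hoxb2, Hoxb7 and Hoxb13 in Hoxb, Hoxc9, Hoxc10, Hoxc11, Hoxc12 and Hoxc13 in Hoxc, and Hoxd1, Hoxd9, Hoxd10, Hoxd11 and Hoxd12 in Hoxd. A count of 0 allows up to 3 reads, which for these genes corresponds to between 0.0223 and 0.0913 FPKM. The second Hoxd4 identifier also had no reads, and the first had 4 reads in each library. Hoxc8 had 4 and 2 reads, and Hoxd13 had 0 and 2. The genes without reads include the whole posterior end of Hoxc and nearly all of the posterior end of Hoxd, the genes known for limb, genital and tail patterning.

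Apart from Hoxc5, the same genes stood at or above 1 FPKM in both libraries. None of the 11 Hox genes with at least 1 FPKM differed by 2-fold on the scale of log2(FPKM + 1), the rule of size used here. Of the 12401 genes with at least 1 FPKM, 4.27% did (2.42% higher and 1.85% lower in Oct4/SOX2 cells). With 11 genes a count of none is near that share and is no result particular to Hox genes. The same holds for the small gene sets below that had none at 2-fold. This scale understates the ratios of low genes. The log2 ratios of the 11 members ran from -0.34 for Hoxb9 to 0.43 for Hoxd8, with a median of 0.11. Over all 12401 genes the median was -0.01. With a pseudocount of 0.1 in place of 1, Hoxa2 at -1.10, Hoxa13 at -1.26 and Hoxd3 at 1.02, all under 1 FPKM, passed 2-fold. The members were spread less widely than all genes (SD 0.29 against 0.47), but their median distance from 0 was larger (0.29 against 0.21), because they fell to either side of 0 with few close to it. Ratios were above 0 for 7 of the 11, or 63.6%, and for 48.3% of all genes. Across the 40 rows the levels in the libraries had a Pearson correlation of 0.985 on the log2(FPKM + 1) scale, a description over genes that share both libraries.

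**Figure D1:**
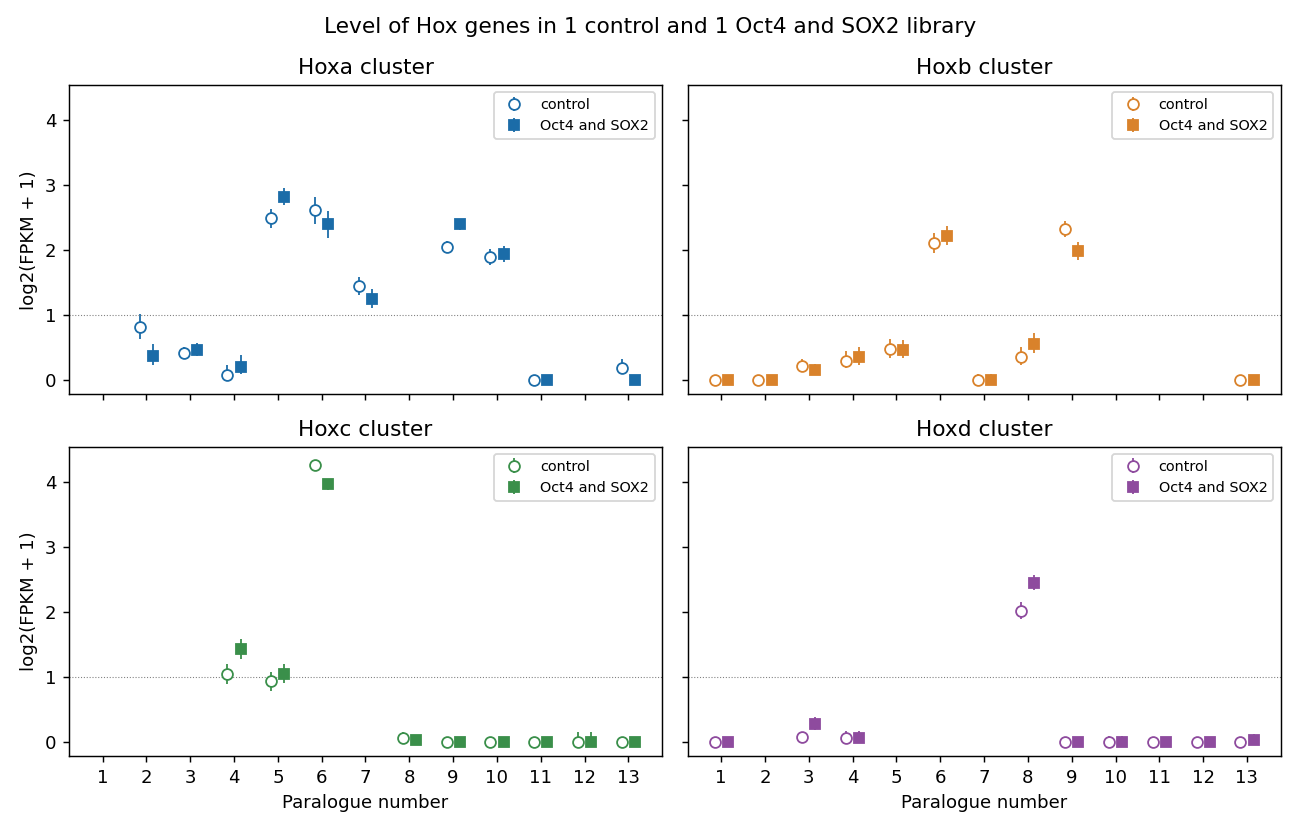
Level of Hox genes by paralogue number in the 4 clusters, as log2(FPKM + 1), in the control (open circles) and the Oct4/SOX2 library (filled squares), with 95% counting intervals as bars and a dotted line at 1 FPKM. Hoxc6 stands highest in both libraries, and no gene crosses from 0 reads to 1 FPKM.

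Smaller differences were read from ratios of plain FPKM. Each ratio has an exact 95% interval for counting error, from recovered read numbers, where a member has at least 10 reads. The interval excluded 1 for 9 of 21 members, or 42.9%. This is below the background of 56.4% of the 17794 genes with as many reads, and of 53.2% of protein-coding genes within the members' range of reads. It lay above 1 for 5 members (background 26.9%) and below 1 for 4 (background 29.6%). The higher genes were Hoxa5, Hoxa9, Hoxc4, Hoxd3 and Hoxd8, and the lower genes Hoxa2, Hoxa13, Hoxb9 and Hoxc6. The intervals cover counting error only, not the variation between cultures, and with shares near or under the background these counts are no result particular to Hox genes.

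**Figure D2:**
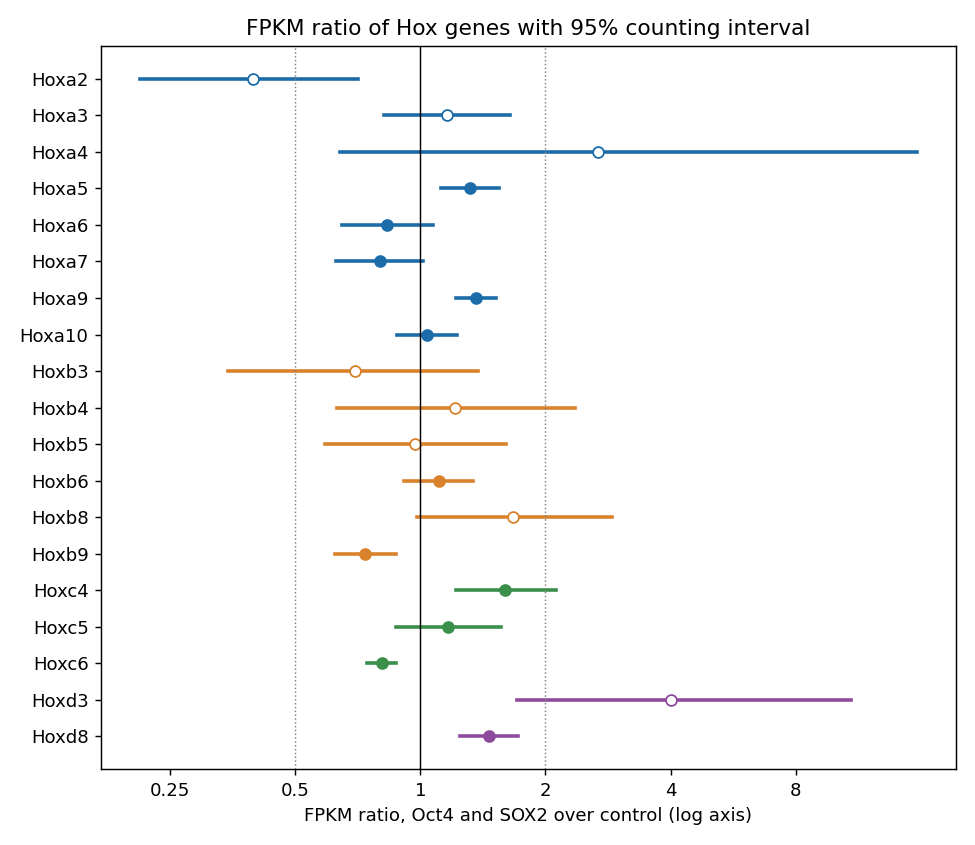
FPKM ratio of 19 Hox genes, Oct4/SOX2 over control on a log axis, with exact 95% counting intervals; filled circles reached 1 FPKM in a library and dotted lines mark 2-fold. Hoxa13 is left out because its second value is 0. Intervals lie to both sides of 1 within the Hoxa cluster and within the Hoxc cluster.

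The Hoxa cluster had the most genes on. It lies on the minus strand of chromosome 6 in GRCm38, and 10 of its 11 genes had at least 10 reads. Summed over the cluster, the level was 19.4 FPKM in control cells and 20.3 FPKM in Oct4/SOX2 cells, a ratio of 1.05. The summed reads were 1599 and 1808, a ratio of 1.13 (95% counting interval 1.06 to 1.21). Genes with ratios above and below 1 lay side by side in it. Leaving out genes whose bodies overlap another gene turned the ratio of the sums to 0.990, with only Hoxa10 and Hoxa13 left.

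Hoxa5, a gene known for lung and gut mesenchyme patterning, was at 4.62 FPKM (277 reads) in the control and 6.09 FPKM (364 reads) in Oct4/SOX2 cells, 1.32-fold higher (1.12 to 1.55). Its neighbour Hoxa6 was at 5.13 and 4.27 FPKM (143 and 119 reads), 1.20-fold lower with an interval that holds 1 (0.934 to 1.54). Hoxa7 was at 1.73 and 1.39 FPKM (159 and 127 reads), 1.25-fold lower, also with an interval that holds 1 (0.984 to 1.59). Hoxa6 and Hoxa7 are middle-group genes of the trunk, and their values lay on the other side of 1 from both their neighbours. Hoxa7 shares 20.4% of its exon bases with the antisense gene Hoxaas3, which had 14 and 20 reads.

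Hoxa9, known as a driver of acute myeloid leukaemia when overexpressed, had the most reads of the cluster. It was at 3.14 FPKM (559 reads) in the control and 4.27 FPKM (760 reads) in Oct4/SOX2 cells, 1.36-fold higher (1.22 to 1.52). Hoxa10, which acts in uterus and limb, was at 2.73 and 2.84 FPKM (285 and 296 reads), a ratio of 1.04 (0.881 to 1.23). Hoxa9 and Hoxa10 were thus on in both libraries, while Hoxa11, next in line, had 0 reads. Hoxa13, a marker of hindgut, limb tip and genital tubercle, had 11 reads in the control (0.139 FPKM) and 0 in Oct4/SOX2 cells. Against the floor of 3 reads this is at least 3.66-fold lower, and the interval's nearest bound is 2.51-fold. All of it lies under 1 FPKM.

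The anterior Hoxa genes were under 1 FPKM. Hoxa2, which specifies the second pharyngeal arch, was at 0.759 and 0.301 FPKM (43 and 17 reads), 2.52-fold lower (1.41 to 4.72). Hoxa3, which acts in thymus and parathyroid development, was at 0.333 and 0.386 FPKM (64 and 74 reads). Hoxa2 thus had the lowest plain FPKM ratio among members with reads in both libraries and at least 10 in all. It shares 15% of its exon bases with another gene, and on the FPKM + 1 scale its log2 ratio was -0.44. Hoxa4 had 3 and 8 reads, too few to place its ratio (2.67, 0.641 to 15.6).

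The Hoxb cluster lies on chromosome 11 from 96194316 to 96368256. Its summed level was 8.42 and 7.90 FPKM, a ratio of 0.938 (1.12 without Hoxb9), and the ratio of its reads had an interval that holds 1 (0.820 to 1.03). Hoxb6 and Hoxb9 carried most of it. Hoxb6, a gene of trunk mesoderm, was at 3.32 and 3.68 FPKM (208 and 230 reads), a ratio of 1.11 (0.914 to 1.34). Hoxb9, a thoracic gene that is also known from colon and breast carcinoma, was at 4.02 FPKM (330 reads) in the control and 2.96 FPKM (243 reads) in Oct4/SOX2 cells. It was 1.36-fold lower (1.15 to 1.61), so that Hoxa9 and its paralogue Hoxb9 stood in opposite order in the libraries.

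The remaining Hoxb genes were under 1 FPKM, and each interval held 1. Hoxb3, which acts with Hoxa3 in the hindbrain and pharynx, had 23 and 16 reads, and 52.9% of its exon bases are shared with its antisense gene Hoxb3os. Hoxb4, known for expanding blood stem cells, had 19 and 23 reads, and Hoxb5, a gene of enteric neural crest, 35 and 34. Hoxb8, a trunk gene used to immortalize myeloid progenitors, was at 0.285 and 0.476 FPKM (24 and 40 reads), a ratio of 1.67 (0.982 to 2.90). Hoxb7 had 0 reads although both its neighbours Hoxb6 and Hoxb8 were counted.

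In the Hoxc cluster, on chromosome 15 from 102921103 to 103036852, no gene numbered above 8 had a read in either library. Hoxc6, a gene of the thoracic trunk and the mammary gland, was the highest Hox gene. Its gene (ENSMUSG00000001661) runs from 102998257 to 103011881. It was at 18.1 FPKM (1391 reads, 95% counting interval of the level 17.2 to 19.1) in the control and 14.6 FPKM (1121 reads, 13.8 to 15.5) in Oct4/SOX2 cells. It was 1.24-fold lower (1.14 to 1.34), and its share of all Hox FPKM was 35.4% and 29.0%. No other member's level interval went above 6.04 FPKM in the control or 6.75 FPKM in Oct4/SOX2 cells.

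Hoxc4 and Hoxc5, cervical and upper thoracic genes, lay on the other side of 1 from Hoxc6. Hoxc4 was at 1.06 FPKM (87 reads) in the control and 1.70 FPKM (139 reads) in Oct4/SOX2 cells, 1.60-fold higher (1.22 to 2.12). This was the largest ratio among members that reached 1 FPKM. Hoxc5 was at 0.913 and 1.07 FPKM (90 and 105 reads), a ratio of 1.17 (0.874 to 1.57). The gene body of Hoxc5 runs across Hoxc6 in the deposited coordinates, and 5.37% of its exon bases are shared with Hoxc10. The summed level of the cluster was 20.1 and 17.4 FPKM, a ratio of 0.865. Hoxc6 decides this direction: without it the ratio was 1.38. Leaving out genes whose bodies overlap another gene left Hoxc4 as the only Hoxc gene with reads, so the value of 1.60 is its ratio alone.

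The Hoxd cluster was the least expressed, at 3.16 and 4.76 FPKM summed, and the one with the largest ratio, 1.5 (2.80 without Hoxd8, on few reads). It lies on chromosome 2 from 74668310 to 74765142. Its reads numbered 279 and 425, a ratio of 1.53 (1.31 to 1.78). Nearly all came from Hoxd8, a trunk gene, at 3.06 FPKM (268 reads) in the control and 4.47 FPKM (391 reads) in Oct4/SOX2 cells. Hoxd8 was 1.46-fold higher (1.25 to 1.71) and went from the seventh to the third level among Hox genes. Hoxd3, an anterior gene also studied for integrin expression and cell adhesion, had 7 and 28 reads (0.0523 and 0.210 FPKM). Its ratio of 4.01 (1.71 to 10.9) was the largest of the members with at least 10 reads, but 62.8% of its exon bases are shared with other genes. Depending on how reads on shared bases were counted, the Hoxd3 count may hold reads of those genes or lack reads of Hoxd3. Gm28230, which lies inside it, had 12 and 21 reads.

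**Figure D3:**
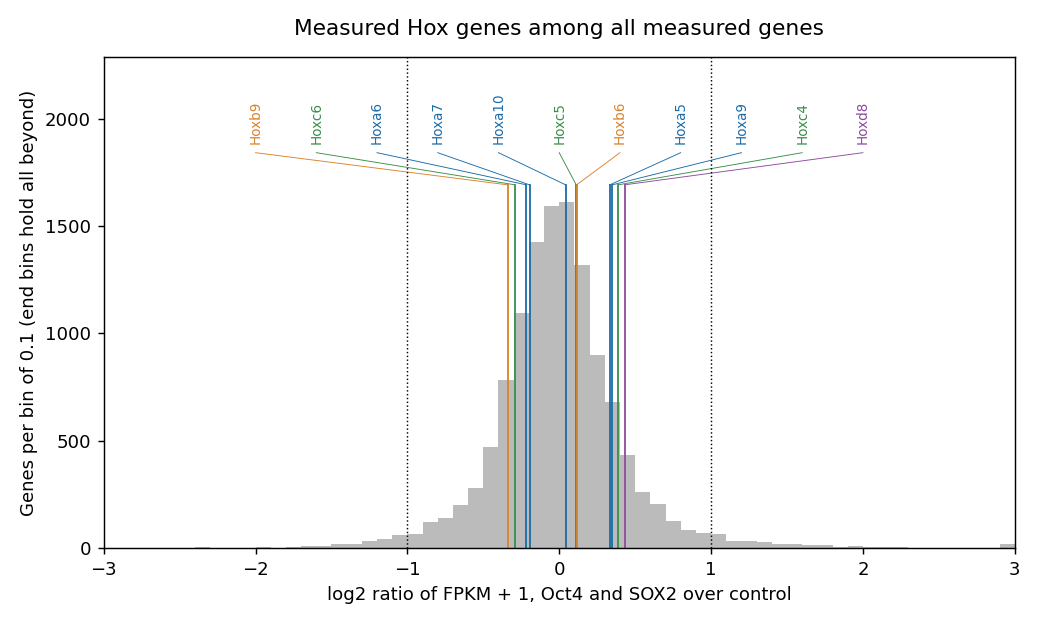
Histogram of log2 ratios of FPKM + 1, Oct4/SOX2 over control, in bins of 0.1, over the 12401 genes that reached 1 FPKM in either library, with the 11 Hox genes as coloured lines and dotted lines at 2-fold. The Hox genes run from -0.34 to 0.43, all inside the dotted lines.

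By paralogue number, expression was highest in the middle of the clusters in both libraries. The genes numbered 4 to 8 summed to 39.0 and 38.6 FPKM, or 76.3% and 76.7% of all Hox FPKM, a ratio of 0.991 (1.15 without Hoxc6). Without genes whose bodies overlap another gene the ratio was 1.56, but that leaves only Hoxb4, Hoxb8 and Hoxc4 with reads. The anterior genes numbered 1 to 3 summed to 2.08 and 1.61 FPKM, and none of these 8 genes reached 1 FPKM. The posterior genes numbered 9 to 13 summed to 10.0 and 10.1 FPKM, a ratio of 1.01. It was 0.846 without members that share exon bases, of which Hoxa9 is one, although only 1.52% of its exon bases are shared, with Mir196b. All came from numbers 9 and 10 apart from 11 and 2 reads at numbers 11 to 13. Of the 9 genes numbered 11 to 13, 7 had 0 reads in both libraries. Every number from 4 to 10 had a gene at 1 FPKM or more in both libraries, and no other number had one in either.

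Within the middle block the shares of the numbers differed between the libraries. Number 6, led by Hoxc6, summed to 26.5 and 22.6 FPKM, and the ratio of its reads was 0.845 (0.788 to 0.907). Number 4 summed to 1.40 and 2.19 FPKM (ratio of reads 1.54, 1.21 to 1.97), number 5 to 5.93 and 7.54 FPKM (1.25, 1.10 to 1.43) and number 8 to 3.39 and 4.97 FPKM (1.47, 1.26 to 1.70). Number 6 thus held 51.9% of Hox FPKM in control cells and 44.8% in Oct4/SOX2 cells. At number 9 the higher Hoxa9 and the lower Hoxb9 gave almost equal sums, 7.16 and 7.24 FPKM. Over all Hox genes the sums were 51.1 and 50.4 FPKM, a ratio of 0.985, and the ratio of their reads had an interval that holds 1 (0.982 to 1.07).

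Hoxc6 was first by level in both libraries, and the order below it differed. In the control Hoxa6, Hoxa5 and Hoxb9 followed at 5.13, 4.62 and 4.02 FPKM. In Oct4/SOX2 cells the next were Hoxa5 at 6.09 FPKM, Hoxd8 at 4.47 FPKM and Hoxa9 and Hoxa6 at 4.27 FPKM. Neighbours in this order were often within counting error. The level interval of Hoxa6 in the control, 4.32 to 6.04 FPKM, takes in the value of Hoxa5, and that of Hoxd8 in Oct4/SOX2 cells, 4.04 to 4.94 FPKM, takes in the values of Hoxa9 and Hoxa6.

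Hox proteins bind DNA together with TALE homeodomain cofactors, the Pbx, Meis and Pknox proteins. Of 9 such genes 6 reached 1 FPKM, none differed by 2-fold, and the median log2 ratio was 0.16. Meis2 was at 2.72 and 3.37 FPKM and Pbx3 at 2.80 and 3.45 FPKM, both with intervals above 1. For Pbx2 (10.9 and 11.3 FPKM), Meis3 (7.01 and 7.51 FPKM) and Pknox1 (4.56 and 4.43 FPKM) the interval held 1. Meis1, a common partner of Hoxa9, and Pknox2 had 0 reads in both libraries.

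The chromatin regulators known to keep Hox genes on or off were all expressed. In the list of MLL complex genes, histone demethylases and related activators, all 12 reached 1 FPKM, none differed by 2-fold, and the median log2 ratio was 0.06. The core subunit genes Dpy30 and Wdr5 were the most expressed, at 24.0 and 39.2 FPKM and at 30.4 and 28.8 FPKM. All 27 Polycomb genes reached 1 FPKM, none differed by 2-fold, and the median was 0.02. Rbbp7, a histone-binding subunit, was at 109 and 110 FPKM, and Bmi1, a subunit of the repressive ubiquitin ligase, at 40.1 and 36.4 FPKM. Ezh2, the main methyltransferase of the complex, chosen after its values were seen, was at 9.05 and 13.3 FPKM. All 10 genes for CTCF and cohesin, which divide the clusters into loops, reached 1 FPKM with a median of 0.08 and none at 2-fold, and Rad21 was at 98.9 and 117 FPKM and Smc3 at 39.0 and 41.3 FPKM.

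Retinoic acid is the best known inducer of anterior Hox genes. Of 18 genes of its pathway 10 reached 1 FPKM, with a median of -0.06. The genes named here were chosen after their values were seen. Rdh10, which makes retinaldehyde from retinol, was at 5.96 and 12.4 FPKM, and Dhrs3, which reverses that step, at 13.2 and 7.43 FPKM. Aldh1a2, the main retinaldehyde dehydrogenase of the embryo, had 0 reads. Cyp26a1, which degrades retinoic acid, had 39 and 9 reads, and the receptor gene Rarg was at 38.0 and 36.8 FPKM. Hoxd4 and Hoxb1 are examples of Hox genes known as direct targets of retinoic acid receptors, not the whole set. Hoxd4 had 4 reads in each library and Hoxb1 had 0.

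The ParaHox and caudal genes are the sister cluster and the direct upstream regulators of posterior Hox genes, and Cdx1 and Cdx2 mark intestinal epithelium. Only Pdx1, a foregut and pancreas gene, reached 1 FPKM of the 6, at 1.99 and 1.59 FPKM with an interval that holds 1. Cdx2 had 14 and 6 reads, Cdx4 had 2 and 0, and Cdx1, Gsx1 and Gsx2 had 0.

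**Figure D4:**
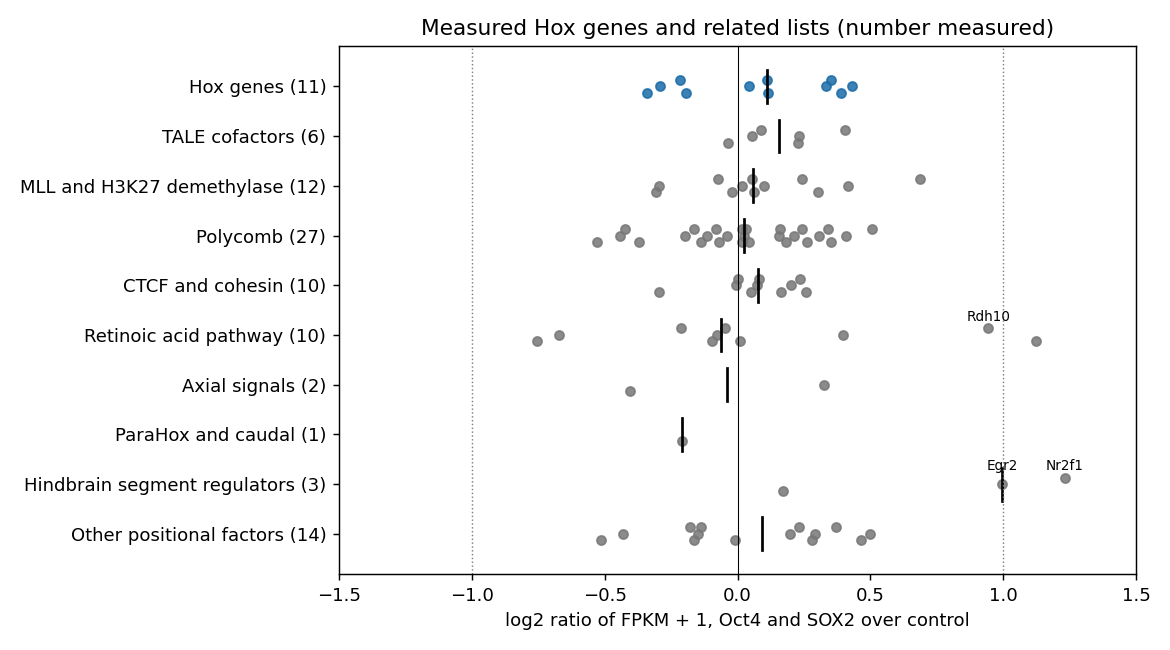
Log2 ratio of FPKM + 1, Oct4/SOX2 over control, for each gene with at least 1 FPKM in a library, by list, with the median as a black bar, the number of such genes in brackets and dotted lines at 2-fold. The 11 Hox genes have a median of 0.11, and Nr2f1, in the list of hindbrain segment regulators, lies past 2-fold.

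Other genes inside the clusters had few reads. Their 46 rows, 20 in Hoxa, 9 in Hoxb, 7 in Hoxc and 10 in Hoxd, are mostly antisense, long noncoding and short RNA genes. Reads were counted for 17 of them, 12 had at least 10, and all 12 intervals held 1. Below that number of reads, 9530018H14Rik beside Hoxa13 had 6 and 0 reads. Hotairm1, an antisense RNA of the Hoxa cluster, had 47 and 36 reads (1.44 and 1.10 FPKM). Gm15050 had 52 and 57 reads and Hoxb5os 40 and 34. Hotair, the long noncoding RNA of the posterior Hoxc end, had 2 and 0. All 7 microRNA genes, which include Mir10a, Mir10b, Mir196b and Mir615, had 0 reads, and mature microRNAs are too short for this kind of library. The sources used here do not say whether the libraries kept strand, so reads of antisense genes and of the Hox genes they overlap cannot be told apart.

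Among the protein-coding genes beside the clusters, 2 on each side of each, none that reached 1 FPKM differed by 2-fold. Of these 16 genes, 11 reached 1 FPKM, and their log2 ratios ran from -0.43 to 0.73 with a median of -0.01. Evx1 and Evx2, the homeobox genes at the posterior ends of Hoxa and Hoxd, had 2 and 0 reads and 0 and 0 reads. Farther out, Skap2 beside the Hoxa cluster was at 3.80 and 4.59 FPKM and Mtx2, beyond Hoxd1, at 16.6 and 20.1 FPKM.

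Oct4 binds the octamer ATGCAAAT, often beside a SOX site, and a search for these letters shows what the sequence around Hox start sites holds. RefSeq windows of 250 bases before to 50 after the start (GRCm38.p6) were found for 22 of the 39 Hox symbols, 24 windows in all. The shorter core ATGCAA, which is contained in the octamer, was in windows of 4 of these genes, Hoxa5, Hoxa13, Hoxd4 and Hoxd8, and in 10.7% of all 32851 windows. The full octamer was in 0 Hox windows and in 1.74% of all windows. The SOX core ACAATG was in 0 Hox windows (12.6% of all) and ACAAAG in windows of 6 genes, Hoxa3, Hoxa11, Hoxb1, Hoxd3, Hoxd4 and Hoxd11 (18.7% of all). Both strands were searched. Hox windows held a median of 57.7% GC and 14.5 CG pairs, against 52.7% and 7 over all windows.

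The stretches before the starts of Hoxa5 and Hoxd8, which were higher in Oct4/SOX2 cells, and of Hoxa6, which was not, are printed with ATGCAA in capitals. Those of Hoxa5 and Hoxa6 are on the minus strand, each reads 5′ to 3′ toward the start, and Hoxd8 was added after its values were seen.
Hoxa5, chr6:52204588-52204837: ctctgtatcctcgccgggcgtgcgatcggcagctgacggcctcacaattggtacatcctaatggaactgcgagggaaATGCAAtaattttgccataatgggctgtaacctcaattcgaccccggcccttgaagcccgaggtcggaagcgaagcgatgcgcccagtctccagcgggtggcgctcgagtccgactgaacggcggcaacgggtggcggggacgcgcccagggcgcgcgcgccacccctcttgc
Hoxd8, chr2:74704365-74704614: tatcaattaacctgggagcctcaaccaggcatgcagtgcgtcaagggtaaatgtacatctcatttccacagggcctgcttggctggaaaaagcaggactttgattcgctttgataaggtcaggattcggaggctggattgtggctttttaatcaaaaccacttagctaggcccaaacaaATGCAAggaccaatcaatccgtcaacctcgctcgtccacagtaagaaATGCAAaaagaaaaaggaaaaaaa
Hoxa6, chr6:52208723-52208922: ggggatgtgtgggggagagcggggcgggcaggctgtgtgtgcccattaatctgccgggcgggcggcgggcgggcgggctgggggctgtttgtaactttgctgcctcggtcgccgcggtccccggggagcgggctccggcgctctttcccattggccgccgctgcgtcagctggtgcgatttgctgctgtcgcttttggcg

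Hoxa5 holds 1 such core and Hoxd8 holds 2, and Hoxa6 holds none. Carriers of the core were not all higher: of the others Hoxa13 had 11 and 0 reads and Hoxd4 had 4 and 4, while Hoxa9, Hoxc4 and Hoxd3 were higher with windows that lack it. Hoxa5 and Hoxa6 are rich in GC, at 63.6% and 71.0%, and Hoxd8 is not, at 44.4%. A match of letters is a description of the window and does not show that Oct4 was bound there.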

How the data were processed

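RNA-seq was done on 2 libraries of CT26 cells, 1 per group, grouped by the genotype or treatment labels. The authors deposited FPKM values for 54532 genes with lengths and positions. CASAVA, HISAT2 and featureCounts 1.5.0-p3 on GRCm38 are named per the submitters' processing notes. For the annotation release, strand setting, handling of multiple matches and FPKM formula the entry is: not given in the sources used here.

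In each library the product of FPKM and gene length was a whole multiple of 1 smallest step for 100% of values (tolerance 0.001 read), which gave 32262408 and 31521115 reads. A measured gene has at least 1 FPKM in a library. Ratios were log2(FPKM + 1), which understates low genes. Folds are plain FPKM ratios with exact 95% conditional binomial (Clopper-Pearson) intervals for genes with at least 10 reads. Intervals and the floor of 3 reads hold for counting error alone, because PCR duplicates are not separate molecules. No test across samples is possible with 1 library per group, and none was made.

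The Hox members and 12 gene lists were chosen with earlier results of these data known. Members were named singly, and from each list up to 3 genes per direction past 2-fold were named or, with none, the 2 most expressed. Cofactors, ParaHox genes, cell type markers, genes inside the clusters and 2 genes on each side were free to name. Of 40 rows, 39 matched GENCODE M21 by identifier and 38 had the same start, end and length. GENCODE M21 gave exon overlaps and transcripts, and RefSeq GRCm38.p6 gave start-site windows. Values of some genes and sequences are not reported here. The interval step was tested on simulated data. Alternatives were other pseudocounts, filters, scalings and interval rules, sums of reads, and leaving out members. Scripts ran on Python 3.11.15 with pandas 2.3.3, scipy 1.17.1, matplotlib 3.10.9 and numpy 2.4.6.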

Additional observations from a re-analysis of the deposited data

How the results depend on the processing

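No Hox gene with at least 1 FPKM passed 2-fold under any alternative run, and 59 of 77 alternatives for the counts, the median and the summed ratios moved by less than the count rule, the spread of the genes or the counting interval. The 11-gene median of 0.11 ran from -0.22 with a filter of 5 FPKM, which leaves 3 genes and changes its sign, to 0.14. Of 84 alternatives for single genes 2 moved and none was classed as reversed. Those that moved were Hoxa13 with a pseudocount of 0.1 (log2 ratio -0.19 to -1.26) and Hoxa9 with a pseudocount of 5 (0.35 to 0.19). Hoxb5 changed sign when centred on the median, from -0.011 to 0.0031, and was not classed as moved. With a pseudocount of 0.1 the log2 ratios of Hoxa2 and Hoxd3 were -1.10 and 1.02, and these genes and Hoxa13 were all under 1 FPKM. With intervals required to lie beyond 1.5-fold, 1 gene was higher and 1 lower, against 5 and 4. Leaving out genes whose bodies overlap another gene kept 16 members, of which 3 reached 1 FPKM, and gave 1 higher and 2 lower. The summed ratios, on these few genes, were 0.990 for Hoxa and 1.60 for Hoxc (Hoxc4 alone), both reversed. They were 0.821 for Hoxb, 1.56 for numbers 4 to 8, on the other side of 1, and 0.846 for numbers 9 to 13, reversed. No value was left for Hoxd and numbers 1 to 3. Leaving out members that share exon bases, added after seeing the data, kept 23 and gave 3 higher. It gave 0.846 for numbers 9 to 13 (without Hoxa9), reversed, and no value for numbers 1 to 3. Without its most expressed gene the ratio was 1.12 for Hoxb (without Hoxb9), 1.38 for Hoxc (without Hoxc6), reversed, 2.80 for Hoxd (without Hoxd8), 1.15 for numbers 4 to 8 and 1.19 for numbers 9 to 13. As sums of reads, which weight long genes, Hoxa was 1.13 and numbers 9 to 13 were 1.10. These alternatives use a stricter interval, fewer genes or a weight by length, and why each value changed was not tested. No paired analysis was possible because each group holds 1 library. The main limits are this lack of replicates and the low reads of most Hox genes.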

Other observations

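Other regulators of position were read as separate lists. Of 45 transcription factor genes known to mark regions of limb, face, gut and body wall, 14 reached 1 FPKM and 20 had 0 reads in both libraries. None of the 14 differed by 2-fold (median log2 ratio 0.09). Over all genes with at least 1 FPKM 4.27% did, and with 14 genes a count of none is near that share. Of the 19 with at least 10 reads, the counting interval lay above 1 for 8 genes, below 1 for 5 and held 1 for 6. Over all genes with as many reads it lay above 1 for 26.9% and below 1 for 29.6%, and the difference from these shares was not tested. The most expressed were Foxf1, a gene of gut and lung mesenchyme, at 58.8 and 52.3 FPKM, and Prrx2, a limb and facial mesenchyme gene, at 34.7 and 25.5 FPKM. The following were chosen after their values were seen. Prrx1, a relative of Prrx2, was at 17.5 and 20.2 FPKM, so the pair lay on opposite sides of 1. Gata4, a heart and foregut gene, was at 5.67 and 3.67 FPKM. Tbx15, a gene of trunk dermis and muscle, was at 6.29 and 9.06 FPKM.

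Among 12 genes for signals and mesoderm factors of the growing embryonic axis, 2 reached 1 FPKM and neither differed by 2-fold. Fgf17 was at 1.26 and 0.706 FPKM, and Gdf11, a signal known to switch on posterior Hox genes, at 0.833 and 1.30 FPKM. In a list of 7 hindbrain segment regulators and related factors, 3 genes reached 1 FPKM. Nr2f1 was at 7.35 and 18.6 FPKM, 2.53-fold higher (2.37 to 2.71), and its relative Nr2f2 at 9.46 and 10.8 FPKM. Egr2, which acts in rhombomeres and is also an early response gene, was at 0.867 and 2.72 FPKM (94 and 295 reads). It was 3.14-fold higher in plain FPKM, with a log2 ratio of FPKM + 1 just under the 2-fold rule. Gbx2 and Otx2 had 0 reads in both libraries. Of the anterior Hox genes, Hoxb1, Hoxb2 and Hoxd1 also had 0, while others such as Hoxa2 (43 and 17 reads), Hoxa3 (64 and 74) and Hoxb3 (23 and 16) were counted.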
